A study of Homo sapiens with 16 samples.

Results

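MX1, MX2 and XAF1 are 3 interferon-stimulated genes that were read out in all 16 libraries of a study of miR-137, out of 20314 genes listed in the tables of both cell lines (20626 in the U343 tables). They were chosen by their measured counts: MX1 was flat in U343 cells where MX2 rose, and XAF1 rose far more in U251 than in U343. The contrast of miR-137 with control and the difference of that contrast between the cell lines are therefore given as descriptions, with no test. U251 and U343 are established human glioblastoma cell lines. Each was transfected at 25 nM with a miR-137 mimic, a synthetic double-stranded copy of the microRNA, or with a control miRNA mimic, so every library comes from cells that received a mimic and no library comes from cells left untransfected. RNASeq measured total RNA, harvested at 48 hours, and RIPSeq measured RNA pulled down from cell extracts with a mix of antibodies to PABP, the poly(A)-binding protein that sits on mature mRNA. The 8 groups (2 lines, 2 assays, 2 mimics) hold 2 libraries each.

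Type I and type III interferons are secreted when cells sense foreign nucleic acid. They signal through JAK kinases to a complex that holds STAT2 and IRF9 and binds interferon-stimulated response elements beside the genes it switches on. MX1 and MX2 are such genes. They lie side by side and encode dynamin-like GTPases, MX1 a cytoplasmic block to influenza and other RNA viruses and MX2 a block to HIV at the nuclear pore. XAF1, the XIAP-associated factor, is another. Its product binds XIAP, the inhibitor that holds caspases in check, and favours apoptosis.

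The sequences below are shown because they are the delivered microRNA and promoter letters that resemble the response element, for the members with a promoter in the reference. Mature hsa-miR-137-3p (RefSeq, GRCh38.p14, chr1:98046091-98046113, minus strand) has its seed, bases 2 to 8, in capitals. The next pair are 30-base windows of the plus strand of RefSeq promoters (GRCh38.p14), with the letters that match a response-element-like motif in capitals, from chr21:41420559-41420588 for MX1 and chr17:6756030-6756059 for XAF1.
hsa-miR-137-3p: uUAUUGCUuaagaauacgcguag
MX1: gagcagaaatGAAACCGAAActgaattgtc
XAF1: cttgcctgcaaGAAACGAAActcaaccgaa

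RefSeq promoters, 250 bases before to 50 after a start site, were searched on both strands for GAAANNGAAA and for GAAANGAAA. Of 35116 promoters, 3.57% held the first and 3.12% the second. MX1 has 3 promoters there and all 3 held at least 1 of the motifs, GAAANNGAAA in 2 and GAAANGAAA in 2. The MX1 match printed above begins at base 12 of the transcript and overlaps a GAAANGAAA that begins at base 7. XAF1 has 2 promoters, of which 1 held GAAANGAAA, 5 bases before the start, and neither held GAAANNGAAA. A match is a description of letters and not of a site in use. MX2 was matched by name only.

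On the hg18 build used for counting, MX2 spans chr21:41655820-41702739 and MX1 spans chr21:41714390-41753010, with 11650 bases between them. XAF1 spans chr17:6599880-6619688. No other gene of the tables overlaps these spans. Reads were counted over the merged exons of each gene. The merged lengths were not used here, so levels are compared between libraries for 1 gene and never between genes.

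Libraries held 10156675 to 18224061 counted reads in U251 RNASeq, 22359794 to 30731476 in U251 RIPSeq, 37952273 to 45134766 in U343 RNASeq and 37736206 to 45055184 in U343 RIPSeq. Levels are CPM, counts scaled to a common library total, after TMM scaling, which corrects library totals for composition. U251 and U343 libraries were made with different reverse-transcription kits, so line and kit cannot be told apart. Of 8 glioma markers, 6 to 7 reached 1 CPM in each group, with OLIG2 near 0 throughout and GFAP at 3.30 to 30.7 CPM (group means) in U251 against 3453 to 6827 in U343. In U251 RNASeq 6 of 7 tested markers were called lower with miR-137 by edgeR (median log2 -1.25), where 29.0% of all genes were called lower. The sum of the 8 markers went from 11707 to 12159 CPM down to 5389 to 5771. In U251 RIPSeq 0 of 7 were called (median -0.88), where 0.263% of all genes were called lower, and 3 had an unadjusted p below 0.05. In RNASeq 6 of 7 differed in response between the lines (median 2.76), where 25.2% of all genes did. The part of this in any line difference was not tested. Of 8 leukocyte markers, 1 to 3 reached 1 CPM, and their sum without CD68 was 0.236 to 3.56 CPM in every library. CD68 moved with miR-137, from 15.7 ± 0.53 (SD, n = 2) to 98.1 ± 8.6 CPM in U251 RIPSeq and from 3.57 ± 0.47 to 109.6 ± 15 in U343 RIPSeq, and its part in any result was not tested. In bulk RNA such as this, fewer cells with a transcript and less of it per cell cannot be told apart.

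The library U343 RNASeq miR-137 replicate 1 stood apart. It carried the falls of mRNAs known as miR-137 targets or tested as such: against both controls CDK6 was at 0.143 times, YBX1 at 0.186, CDC42 at 0.348 and AKT2 at 0.301, beside 0.154, 0.255, 0.315 and 0.423 in replicate 2. Yet IFIT1, a classical interferon-stimulated gene, was at 9.94 CPM in it and 1768 in replicate 2, with 13.4 and 13.5 in the controls. The ratios and PABP comparisons of MX1, MX2 and XAF1 that rest on it are given with and without it. So are the U343 RNASeq counts of antiviral, signalling and caspase genes called. Some other results are given with it only. Among them are the RNASeq line differences of XIAP, IFITM3, BST2 and the glioma markers. The U343 RNASeq counts of dynamin relatives and neighbours and the profile correlations are also given with it only.

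MX1 rose in U251 and did not in U343. In U251 RNASeq it was at 10.2 and 9.18 CPM with the control mimic (replicates 1 and 2) and at 868 and 902 with miR-137. In U251 RIPSeq it was at 4.73 and 6.47 with control and at 606 and 618 with miR-137. In both assays the miR-137 libraries lay far above the controls and close to each other.

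The ratio of summed reads was 91.2 (95% Clopper-Pearson interval 81.8 to 102) in U251 RNASeq and 109 (97.1 to 123) in U251 RIPSeq. Such intervals cover counting error only. On the log2 scale the ratios were 6.51 and 6.77, and the 4 pairings of single libraries ran from 6.41 to 6.61 and from 6.54 to 7.02.

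In U343 the MX1 values stayed together. In U343 RNASeq they were 9.36 and 9.49 CPM with control and 4.65 and 9.91 with miR-137, so the library that stood apart was the lowest and the other sat just above the controls. In U343 RIPSeq they were 7.66 and 8.67 with control and 9.18 and 10.1 with miR-137. The miR-137 pair lay above the control pair there, by a ratio of 1.19 (1.06 to 1.32). In U343 RNASeq the ratio was 0.780 (0.701 to 0.867) with both miR-137 libraries, 1.05 (0.933 to 1.18) with replicate 2 alone and 0.495 (0.420 to 0.579) with replicate 1 alone.

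MX2, a close relative of MX1 and its neighbour on chromosome 21, rose in both lines. In U251 RNASeq it was at 1.16 and 1.77 CPM with control and at 467 and 484 with miR-137, and in U251 RIPSeq at 1.203 and 1.32 with control and 618 and 619.7 with miR-137. In U343 RIPSeq it was at 0.415 and 0.324 with control, 17 and 12 reads, and at 712 and 670.0 with miR-137. In these experiments the miR-137 libraries lay far above every control library, with no overlap.

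In U343 RNASeq MX2 was at 0.857 and 0.652 CPM with control, at 2.18 in miR-137 replicate 1 and at 414 in replicate 2. Replicate 1 lay above both controls but far below replicate 2. The ratios of miR-137 to control were 320.2 (244 to 437) in U251 RNASeq, 487 (386 to 635) in U251 RIPSeq and 1826 (1293 to 2774) in U343 RIPSeq. In U343 RNASeq the ratio was 277 (219 to 362) with both libraries, 538 (425 to 703) with replicate 2 alone and 2.85 (2.05 to 3.99) with replicate 1 alone. On the log2 scale replicate 2 alone gave 9.07, between the 8.32 of U251 RNASeq and the 10.83 of U343 RIPSeq.

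XAF1 rose from control levels that lay far apart in the lines. In U251 RNASeq it was at 0.244 and 0.118 CPM with control, 4 and 2 reads, and at 269 and 271 with miR-137. In U251 RIPSeq it was at 0.582 and 0.263 with control, 15 and 7 reads, and at 282 and 272 with miR-137. In U343 RIPSeq it was already at 12.9 and 11.6 with control, 527 and 428 reads, and reached 217 and 255 with miR-137. The control libraries of U343 lay above those of U251 without overlap, while the RIPSeq miR-137 libraries of both lines lay between 217 and 282.

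In U343 RNASeq XAF1 was at 8.59 and 10.7 CPM with control, at 8.82 in miR-137 replicate 1, inside the controls' range, and at 123 in replicate 2. With miR-137 over control, XAF1 ratios were 1386 (689 to 4093) in U251 RNASeq and 645 (435 to 1052) in U251 RIPSeq, wide because the control counts were small. The U343 RIPSeq ratio was 19.3 (18.1 to 20.6). In U343 RNASeq it was 7.04 (6.54 to 7.59) with both libraries, 12.9 (11.9 to 13.9) with replicate 2 alone and 0.924 (0.813 to 1.05) with replicate 1 alone.

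**Figure D1:**
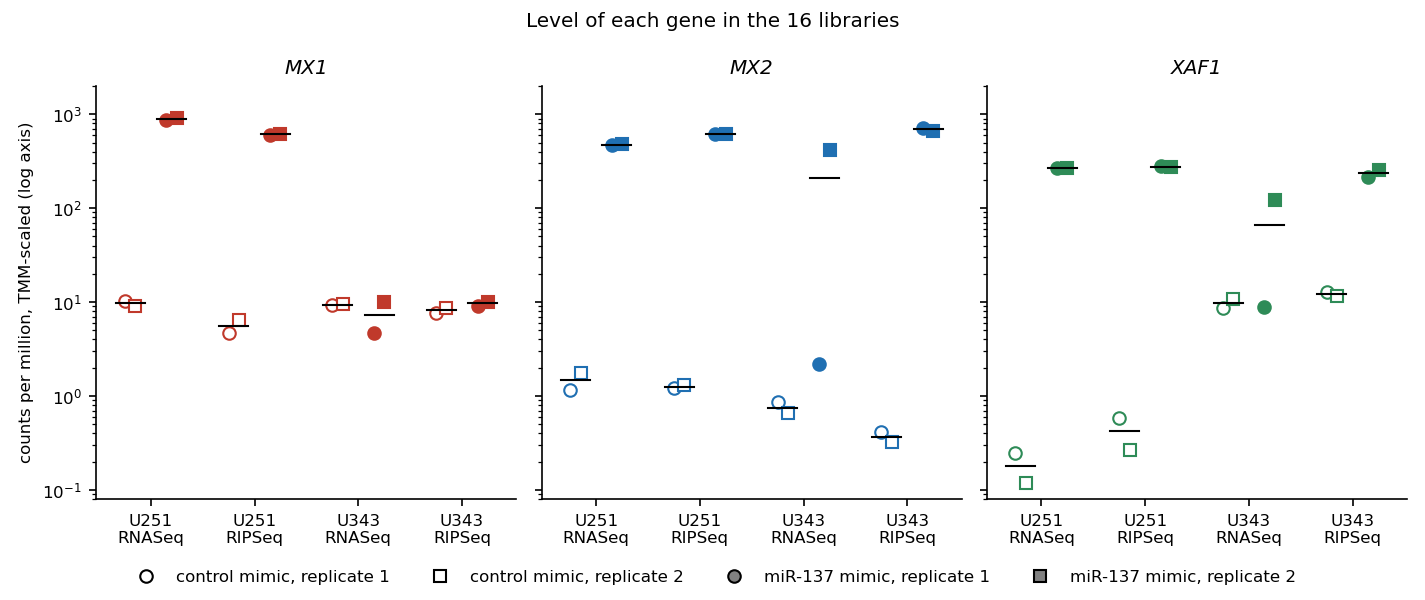
Level of MX1, MX2 and XAF1 in each of the 16 libraries, in CPM on a log axis. Open points are control mimic, filled points miR-137 mimic, circles replicate 1 and squares replicate 2, and bars are means of 2 libraries. MX1 lies between 4.65 and 10.1 CPM in every U343 library, MX2 reaches over 400 CPM in all miR-137 groups but for 1 library, and XAF1 controls are higher in U343 than in U251.

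Set against each other at the same treatment, the lines differed by gene and in different places. With the control mimic, XAF1 was 49.1 times (24.3 to 145) as high in U343 as in U251 in RNASeq and 28.5 times (19.1 to 46.7) in RIPSeq. With miR-137 the same ratio was 0.455 (0.439 to 0.472) in RNASeq without replicate 1, 0.249 (0.241 to 0.258) with it, and 0.852 (0.834 to 0.872) in RIPSeq. With miR-137 U251 was the higher in both assays, by more in RNASeq than in RIPSeq.

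MX1 showed the reverse. With the control mimic U343 stood at 0.972 times (0.854 to 1.11) U251 in RNASeq and at 1.45 times (1.26 to 1.67) in RIPSeq. With miR-137 U251 was 89.2 times (81.2 to 98.5) as high as U343 in RNASeq without replicate 1, 120.3 times (111 to 131) with it, and 63.3 times (58.7 to 68.4) in RIPSeq. For MX2, U343 was at 0.519 times (0.354 to 0.770) U251 with control in RNASeq and 0.298 times (0.184 to 0.463) in RIPSeq. With miR-137 it was at 0.872 times (0.852 to 0.893) in RNASeq without replicate 1, 0.449 (0.439 to 0.460) with it, and 1.12 times (1.10 to 1.13) in RIPSeq. The lines therefore ended nearly level in MX2.

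**Figure D2:**
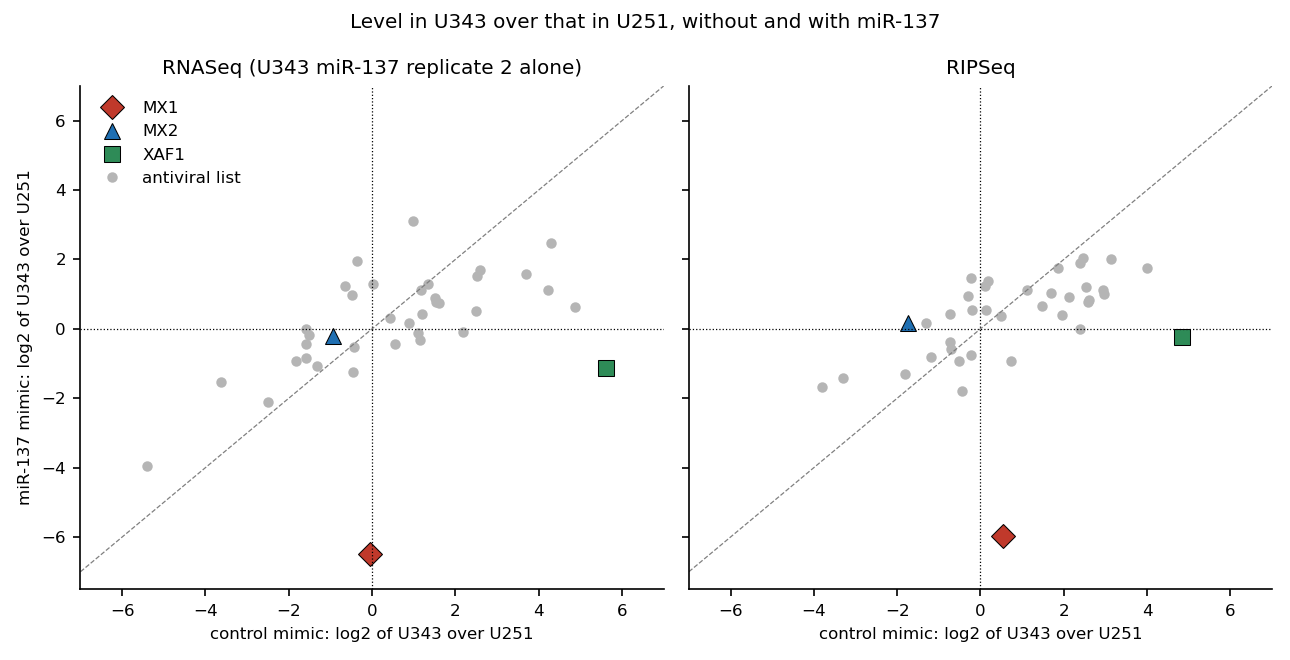
Level in U343 over that in U251, log2, with the control mimic (x axis) and with miR-137 (y axis), for the 3 genes and 35 antiviral genes, in RNASeq without U343 miR-137 replicate 1 (left) and in RIPSeq (right). The dashed line marks equal ratios. XAF1 lies to the right of every antiviral gene (log2 5.62 and 4.83 with control) and MX1 lies below every one (-6.48 and -5.98 with miR-137).

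The share of MX2 to MX1 reads in a library set the pair side by side without a library scale. It was 0.114 to 0.254 MX2 reads per MX1 read in the U251 controls and 0.536 to 1.02 in the U251 miR-137 libraries. In U343 it was 0.0374 to 0.0915 in the controls, 0.469 in RNASeq miR-137 replicate 1, and 41.8, 77.5 and 66.1 in the other miR-137 libraries. Since gene lengths were not used, only the change of this share between libraries can be read.

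The 3 genes were set beside a list of 35 other antiviral interferon-stimulated genes, among them IFIT, OAS, IFITM and IFI genes. In U251 RNASeq edgeR called 35 of 35 higher with miR-137, with a median log2 fold change of 4.66 beside 0.02 over all genes tested, of which 28.7% were called higher. In U251 RIPSeq 27 of 35 were called higher (median 4.95 beside -0.02, and 0.944% of all genes), and the other 8 had an unadjusted p below 0.05. The U251 RIPSeq controls differed from each other, with IFNAR1, for instance, at 28.6 and 70.8 CPM. In U343 RIPSeq 35 of 35 were called higher (median 4.83 beside 0.00, and 28.5% of all genes). Some list genes passed the filter through the miR-137 libraries, so their calls are no test, though the counts include them. For instance, RSAD2, OAS2 and IFITM2 were at 0.180, 0.208 and 0.302 CPM in the U251 RNASeq controls, and IFI27 at 0.127 in the U343 RIPSeq controls.

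In U343 RNASeq edgeR called 0 of 35 higher (median 3.95 beside 0.02), while 8.31% of all genes were called higher. At an unadjusted p below 0.05 it counted 11 of 35, beside 5551 of 15088 over all genes. DESeq2 called 17 higher, beside 1963 of 14210 over all genes. Without miR-137 replicate 1 the count was 35 of 35 (median 4.93), with 19.3% of all genes called higher. Without replicate 2 the median log2 fold change of the list was 0.06, beside -0.01 over all genes. Replicate 1 alone had a list median log2 ratio of 0.12 and replicate 2 alone of 4.92.

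Within that list's spread the 3 genes took different places. In U251 RNASeq the list ran from log2 1.49 (EIF2AK2, the kinase PKR) to 11.78 (RSAD2, viperin), and 27, 31 and 33 of the 35 lay below MX1, MX2 and XAF1. In U343 RIPSeq it ran from 1.95 to 10.62 (IFITM1). There 0 of 35 lay below MX1, which was at 0.25, 14 lay below XAF1 at 4.27, and 35 lay below MX2 at 10.83. In U343 RNASeq replicate 2 alone the numbers below were 0, 11 and 34. MX1 was thus the lowest and MX2 at or near the top of the same list in the same libraries.

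By a threshold set after the values were seen, 24 genes had a log2 ratio of at least 5 in both U251 assays and at least 100 reads in each U251 miR-137 library. Of these, 22 had a log2 ratio of at least 1 in U343 RIPSeq, with a median over the 24 of 6.68. The other 2 were MX1 and GBP4, a guanylate-binding protein, at 0.60. MX2 and XAF1 are among the 22. MX1 was chosen for being flat in U343, so its place among the 2 is no test. The share of all genes at that ratio was not counted.

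**Figure D3:**
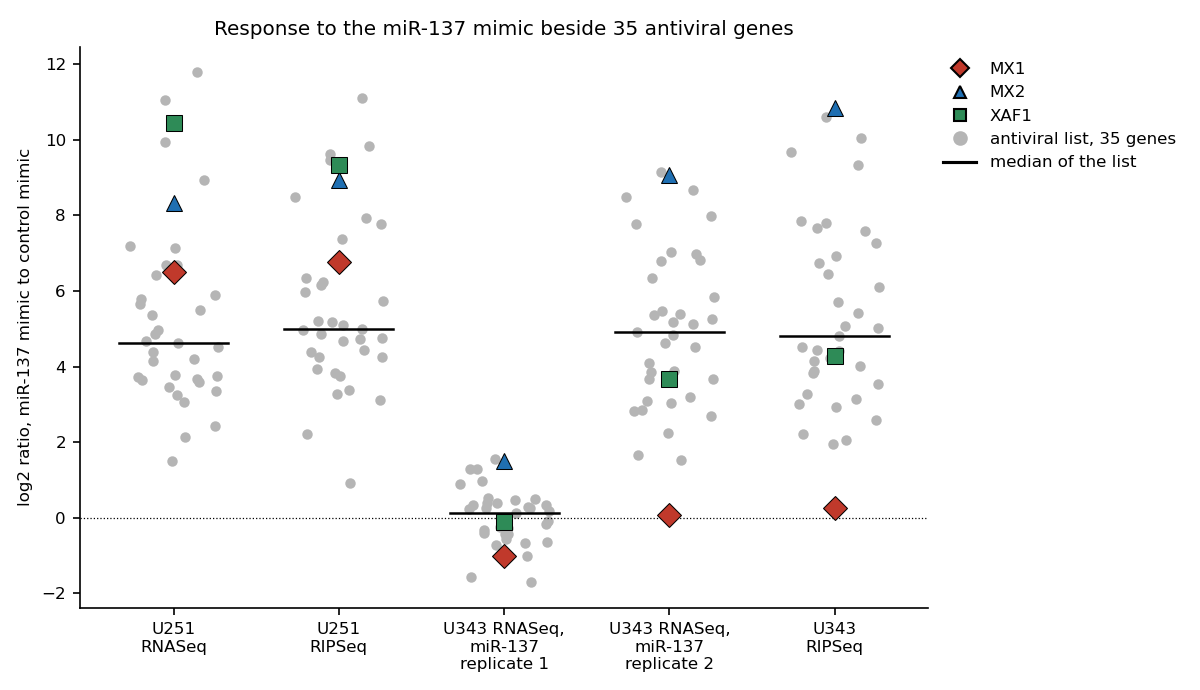
Log2 ratio of miR-137 to control mimic for MX1, MX2 and XAF1 (coloured) and 35 antiviral genes (grey, line at the median), per experiment, with the U343 RNASeq miR-137 libraries drawn apart. The list median is 4.63, 5.00, 0.12, 4.92 and 4.80 from left to right, and MX1 lies below the whole list in U343 RNASeq replicate 2 and in U343 RIPSeq.

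Whether the antiviral genes as such responded unequally in the lines was tested with a line-by-transfection term in edgeR, with the lines' kits inseparable from the lines. In RNASeq 2 of 35 genes differed, in a table where 25.2% of all genes did. Both had the larger rise in U251: IFITM3, an inhibitor of viral entry (log2 difference -3.03, SE 0.81, adjusted p = 0.0277), and BST2, the tetherin that holds budding virus (-2.57, SE 0.53, adjusted p = 0.0109). The count rests on single libraries. With U343 miR-137 replicate 1 in the fit, a low count does not show that the lines responded alike. The median difference of the list was -1.13 with all 8 libraries, beside -0.08 over all genes. It was -0.14 without U343 miR-137 replicate 1 and -4.65 without replicate 2, beside -0.09 and -0.12 over all genes.

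In RIPSeq 6 of 35 differed, where 3.28% of all genes did and the median of all genes was shifted by 0.11. IFIT1 (-2.26, SE 0.29, adjusted p = 0.0153), OAS1, which makes the second messenger of RNase L (-2.10, SE 0.31, adjusted p = 0.0212), and IFIT3 (-1.71, SE 0.28, adjusted p = 0.0282) rose more in U251. IFI27 (2.29, SE 0.31, adjusted p = 0.0170), USP18, the protease that removes ISG15 (1.85, SE 0.29, adjusted p = 0.0254), and OASL (1.30, SE 0.26, adjusted p = 0.0452) rose more in U343. IFI27 was at 0.127 CPM in the U343 controls and OAS1 at 0.382 in those of U251. Their differences rest on few control reads. The count rests on single libraries as well. It was 16 by DESeq2, where 1195 of 14721 genes were higher and 665 lower. It was 3 with the replicate number as a block, where 86 of 15959 genes were higher and 54 lower. Beside these the members' own differences, given without a test, were -6.39 for MX1, -4.92 for XAF1 and 2.06 for MX2 in RIPSeq.

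The ligands, receptors and transcription factors upstream of the 3 genes were measured in the same libraries. The signalling list held 24 genes, of which edgeR called 10 higher and 2 lower of 17 tested in U251 RNASeq, 4 and 0 of 19 in U251 RIPSeq, 14 and 3 of 21 in U343 RIPSeq, and 0 and 1 of 18 in U343 RNASeq (12 and 4 of 22 without miR-137 replicate 1). Of all genes tested, the shares called higher and lower were 28.7% and 29.0% in U251 RNASeq, 0.944% and 0.263% in U251 RIPSeq, 28.5% and 27.8% in U343 RIPSeq, and 8.31% and 11.7% in U343 RNASeq (19.3% and 20.3% without miR-137 replicate 1). The same shares stand behind the list counts that follow. The ligands had almost no reads in the controls and, where they passed the filter, did so through the miR-137 libraries. They are given as values with no test, though the counts above include those that passed. IFNB1, interferon beta, went from 0.0758 ± 0.052 to 11.1 ± 0.98 CPM (SD, n = 2) in U251 RIPSeq and from 0.0122 ± 0.017 to 21.4 ± 5.8 in U343 RIPSeq.

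IL29, interferon lambda, went from 0.0964 ± 0.083 to 8.38 ± 1.1 CPM in U251 RIPSeq, and from 0 reads in both controls to 20.1 and 43.9 CPM in U343 RIPSeq. IL28A and IL28B, its near-identical relatives whose reads may be split between them, were at 8.79 ± 3.9 and 6.33 ± 2.7 CPM with miR-137 in U343 RIPSeq and at 0.0377 ± 0.053 and 0.116 ± 0.0037 in U251 RIPSeq. In U343 RNASeq miR-137 replicate 1, IFNB1 was at 0.0242 CPM and IL29 at 0.

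The receptors were present in both lines. In U343 RIPSeq IFNAR1 fell by 0.99 on the log2 scale (SE 0.09, adjusted p = 5.9e-05), to 20.7 ± 0.11 CPM, and in U251 RNASeq it fell by 0.50 (SE 0.14, adjusted p = 0.0068). IFNAR2, its partner, had 6.27 ± 0.32 and 6.45 ± 0.68 CPM with miR-137 in U251 RNASeq and U343 RIPSeq, and its change passed the test in neither. IL28RA, the lambda-specific chain, was at 5.81 ± 0.028 and 1.92 ± 0.38 CPM there, and IL10RB, the chain shared with it, at 51.6 ± 3.2 and 76.5 ± 3.9, and neither passed.

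STAT2 and IRF9, which bind the response element together, rose in U251 RNASeq (log2 1.81 and 4.72) and in U343 RIPSeq (2.46 and 4.13), each with an adjusted p of 3.2e-06 or less by edgeR. In U251 RIPSeq both passed as well (log2 2.50, SE 0.25, adjusted p = 0.0343 for STAT2, and 4.92, SE 0.30, adjusted p = 0.0192 for IRF9). IRF7, the factor that amplifies interferon production, stood apart from them. In U343 RIPSeq it went from 7.84 and 8.78 CPM with control to 606 and 609.6 with miR-137. In U251 RIPSeq its control libraries were at 0.978 and 2.25 and its miR-137 libraries at 0.491 and 0.948, which did not pass (log2 -1.28, SE 0.66, adjusted p = 0.368). In U251 RNASeq it rose from 0.481 ± 0.097 to 1.93 ± 0.37 (log2 2.02, SE 0.40, adjusted p = 7.2e-04). Its line-by-transfection difference in RIPSeq was log2 7.54 (SE 0.66, adjusted p = 0.0098). In the U343 RNASeq miR-137 libraries IRF7 was at 23.7 and 406 CPM, beside 6.45 and 7.22 in the controls, so the lower of these was above the controls.

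The partners of XAF1 in apoptosis were called in both directions, as genes at large were. Of 14 genes of the XIAP and caspase list edgeR called 5 higher and 6 lower in U251 RNASeq, 1 and 0 in U251 RIPSeq, 0 and 3 in U343 RNASeq (5 and 3 without miR-137 replicate 1) and 6 and 3 in U343 RIPSeq. XIAP, the partner of XAF1, fell in U251 RNASeq by 1.18 on the log2 scale (SE 0.13, adjusted p = 4.6e-06) and rose in U343 RIPSeq by 0.37 (SE 0.09, adjusted p = 0.0109), and in RNASeq its response differed between the lines (log2 difference 1.33, SE 0.31, adjusted p = 0.0165). BIRC5, survivin, fell in U251 RNASeq by 0.65 and in U343 RIPSeq by 1.42 on the log2 scale. TNFSF10, the death ligand TRAIL and itself an interferon target, rose in both (3.24 and 5.99).

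Of 10 dynamin relatives, edgeR called 4 higher and 4 lower in U251 RNASeq, 0 and 0 in U251 RIPSeq (3 at an unadjusted p below 0.05, and 1 higher by DESeq2), 1 and 1 in U343 RNASeq and 1 and 5 in U343 RIPSeq. DNM1L, which divides mitochondria, was at 161 ± 3.3 and 113 ± 5.5 CPM with control and miR-137 in U251 RNASeq and OPA1, which fuses them, at 422 ± 16 and 229 ± 18, and both were called lower there. DNM1, the neuronal dynamin, rose in U251 RNASeq by 1.01 (SE 0.16) and in U343 RIPSeq by 1.02 (SE 0.28), from a level of 0.478 ± 0.088 CPM in the latter. DNM2, which pinches off endocytic vesicles, passed in U251 RNASeq only (0.35, SE 0.14, adjusted p = 0.044), and the difference to the other experiments was not tested.

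The 12 nearest genes on both sides were read beside the members, 3 on each side of the MX pair and of XAF1. Of the 7 neighbours tested in each of U251 RNASeq, U251 RIPSeq and U343 RIPSeq, 6, 0 and 4 were called higher and 0, 0 and 1 lower by edgeR. In U251 RIPSeq 2 had an unadjusted p below 0.05 and DESeq2 called 1. In U343 RNASeq edgeR and DESeq2 called 0 of 5 (1 and 2 at an unadjusted p below 0.05). Around the MX genes, BACE2, a membrane protease, was at 93.3 ± 3.9 and 64.4 ± 2.4 CPM with control and miR-137 in U251 RIPSeq and at 196 ± 15 and 159 ± 18 in U343 RIPSeq, and passed in neither. FAM3B, 4295 bases before MX2, did not exceed 0.270 CPM in any group mean. TMPRSS2, the serine protease that primes influenza haemagglutinin, lies 5339 bases after MX1 and was at most at 0.827 CPM in any group mean, going from 0.238 ± 0.16 to 0.795 ± 0.055 in U251 RNASeq and from 0.158 ± 0.12 to 0.431 ± 0.017 in U343 RIPSeq.

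Next to XAF1, FBXO39, an F-box gene 587 bases beyond its end, also had more reads with miR-137. It went from 0 and 0.122 CPM to 5.75 and 5.79 in U251 RNASeq and from 0.226 and 0.388 to 2.45 and 2.72 in U251 RIPSeq. In U343 RIPSeq it was at 0 and 0.0270 CPM with control and at 0.305 and 0.502 with miR-137. It too passed the filter through the miR-137 libraries, so its calls are not used as a test, though the counts above include them. MED31, a Mediator subunit before XAF1, was called by edgeR higher in U251 RNASeq (0.63, adjusted p = 0.0032) and lower in U343 RIPSeq (-0.39, adjusted p = 0.018). These experiments differ in both line and assay, and edgeR called no neighbour in U251 RIPSeq or U343 RNASeq.

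**Figure D4:**
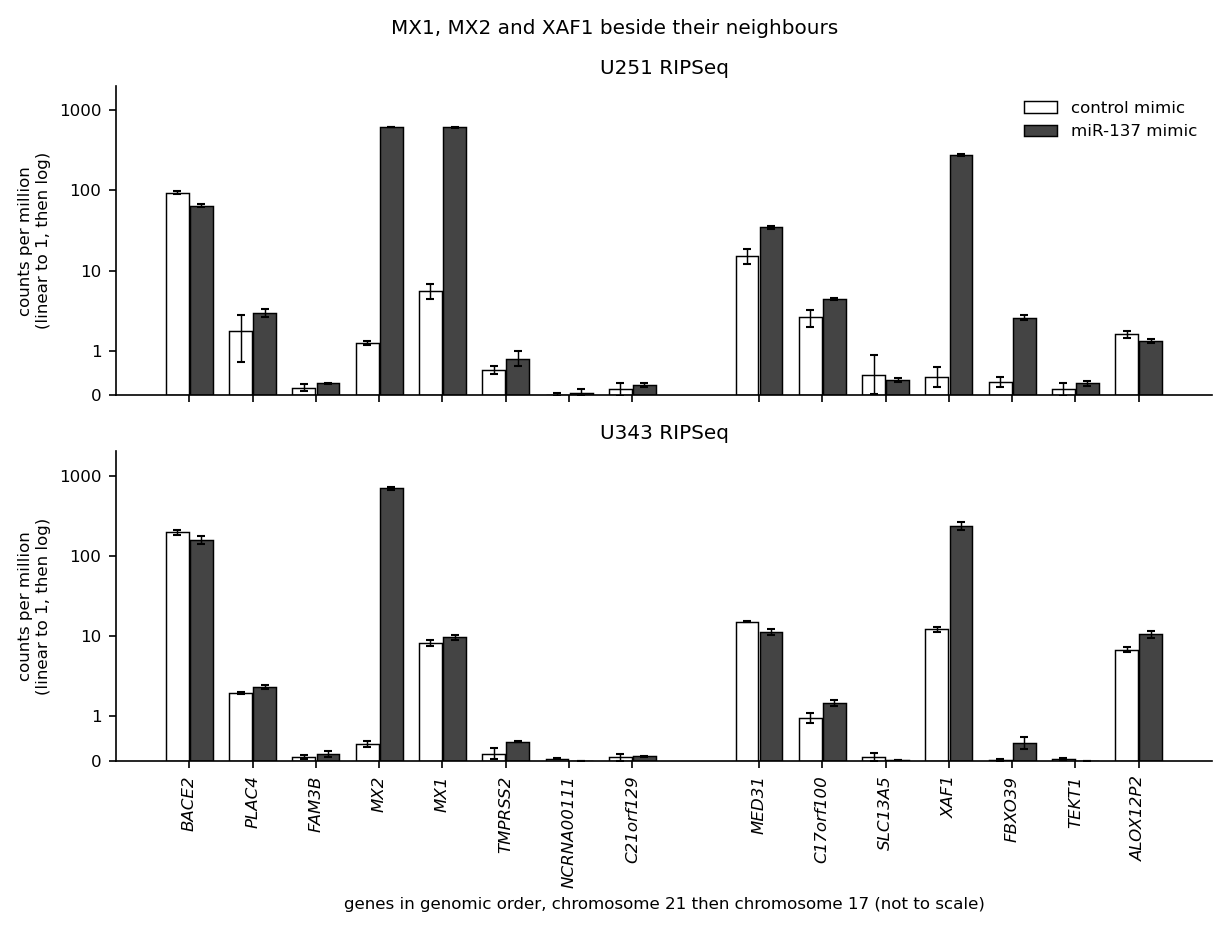
Mean CPM ± SD (n = 2) in RIPSeq of MX2, MX1 and XAF1 and the 3 nearest genes on each side, in genomic order, in U251 (top) and U343 (bottom), with control mimic (white) and miR-137 mimic (dark). The axis is linear to 1 and logarithmic above. Between the MX2 and TMPRSS2 bars, MX1 changes from 5.60 to 612 in U251 and from 8.17 to 9.66 in U343.

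PABP-bound RNA was then set against total RNA within the miR-137 libraries, by edgeR across all genes. The genes were chosen by contrasts of mimic and line and not of assay, but from the same counts. These tests are therefore not fully independent of the choice. In U251, 2 of the 3 genes passed, beside 65.9% of all genes in either direction. MX1 was lower in PABP-bound RNA, at 606 and 618 CPM against 868 and 902 in total RNA (log2 -0.56, SE 0.08, adjusted p = 3.7e-04). MX2 was higher, at 618 and 619.7 against 467 and 484 (0.35, SE 0.08, adjusted p = 0.0050). XAF1 did not pass (0.01, SE 0.08, adjusted p = 0.956). The U251 controls were not fitted here. Their MX1 levels, 4.73 and 6.47 CPM in PABP-bound RNA and 10.2 and 9.18 in total RNA, had the same order as with miR-137. Of the 35 antiviral genes, 16 were higher and 6 lower in PABP-bound RNA there. The call for MX2 was lost without either RIPSeq library (adjusted p = 0.123 and 0.136). RIPSeq and RNASeq shares are relative to all RNA of the same assay, so a difference is one against the average mRNA.

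In U343, 0 of 3 passed with both RNASeq libraries, by edgeR and by DESeq2 and also at an unadjusted p below 0.05 (18.1% of all genes passed). Without RNASeq miR-137 replicate 1, 2 of 3 passed, beside 28.4% of all genes, on 1 total RNA library whose spread is assumed to be that of the RIPSeq pair. MX2 was then higher in PABP-bound RNA (0.69, SE 0.16, adjusted p = 0.0336), as was XAF1 (0.90, SE 0.15, adjusted p = 0.0166). MX1 was at -0.08 (SE 0.15, adjusted p = 0.705). Of the antiviral genes 9 were then higher and 6 lower. Without replicate 2 in its place 3 of 3 passed, beside 36.7% of all genes, with MX1 at 1.05 (adjusted p = 0.0104), MX2 at 8.30 (adjusted p = 2.3e-04) and XAF1 at 4.74 (adjusted p = 3.3e-04), so the size rests on which total RNA library is used. In the U343 controls 1 of 3 passed, beside 48.6% of all genes. MX2 was lower there in PABP-bound RNA (-1.07, SE 0.32, adjusted p = 0.0277 by edgeR) on 12 to 40 reads a library, and the call was lost by DESeq2 (adjusted p = 0.176) and without RNASeq control replicate 1 or either RIPSeq control. MX1 (-0.25, SE 0.12) and XAF1 (0.29, SE 0.14) did not pass.

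The difference between lines in that contrast passed for 0 of 3 genes with all 8 miR-137 libraries by edgeR (1 of 3 at an unadjusted p below 0.05 and 1 of 3, MX1, by DESeq2), beside 28.0% of all genes. The log2 differences, U343 minus U251, were 0.98 (SE 0.41, adjusted p = 0.111) for MX1, 1.38 (SE 1.98) for MX2 and 1.84 (SE 1.21) for XAF1. Without U343 RNASeq replicate 1 it passed for 2 of 3, beside 35.4% of all genes: MX1 at 0.52 (SE 0.18, adjusted p = 0.0367) and XAF1 at 0.93 (SE 0.17, adjusted p = 0.0012). MX2 was at 0.38 (SE 0.16, adjusted p = 0.085). Without replicate 2 it passed for 3 of 3, beside 42.6% of all genes, at 1.63, 7.96 and 4.74. All 3 signs were toward more PABP-bound RNA in U343. The median of the antiviral list was 1.04 with all 8 libraries, beside 0.04 over all genes, and it too rests on that library. Within each line, the list median of PABP-bound over total RNA was 0.21 in U251 and 1.13 in U343. Without U343 RNASeq replicate 1 it was 0.21 in U343 as well. Kit and line cannot be told apart.

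**Figure D5:**
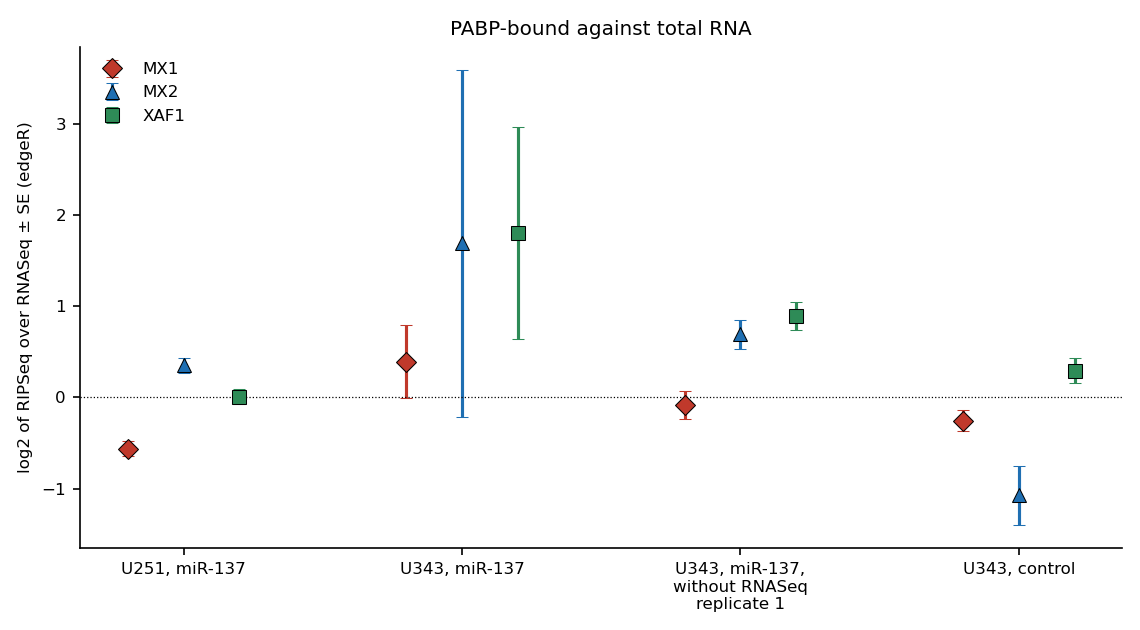
Log2 of PABP-bound RNA (RIPSeq) over total RNA (RNASeq), edgeR estimate ± SE, for MX1, MX2 and XAF1 in the miR-137 libraries of U251 and U343, in U343 without RNASeq replicate 1, and in the U343 controls. In U251 MX1 is below 0 and MX2 above it, and the bars of U343 shrink once replicate 1 is left out, from 1.90 to 0.16 for MX2.

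The genes whose profiles over the 16 libraries were most like each member were found by Pearson's r of log2 CPM among 16187 genes. They are descriptions over libraries that share line and treatment. The members were chosen from these same counts. Their nearest profiles and their r with each other are therefore no test. Nearest to MX2 were ISG15 (r = 0.995), OASL (0.986), IFITM1 (0.985), IFI16 (0.983) and DDX58, the sensor RIG-I (0.982), all interferon-stimulated. Nearest to XAF1 were RTP4 (0.977), LY6E (0.976), OAS2 (0.968), APOL6 (0.964) and OAS1 (0.960). Nearest to MX1 were RGS2 (0.943), STBD1 (0.937), ZNF114 (0.936), ZBTB9 (0.932) and ANGPTL4 (0.932), of which none is on the antiviral list. MX1 and MX2 had an r of 0.666 with each other, MX1 and XAF1 of 0.621, and MX2 and XAF1 of 0.810.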

How the data were processed

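Total RNA and PABP-bound RNA of U251 and U343 cells were sequenced after rRNA depletion. The authors aligned reads to hg18 with RMAP and deposited raw read counts per RefSeq gene, with the isoforms of a gene merged. Versions, strand handling and multi-mapping are not given in the sources used here. Of the genes, 20314 in both lines' tables were used together, and of 1 gene with a repeated line in U251 the first line was kept. Levels and ratios used TMM totals over the 16 libraries, with 0.5 reads added to each sum. Tests were edgeR 4.0.16 quasi-likelihood fits across all genes passing filterByExpr, with Benjamini-Hochberg adjusted p below 0.05 called, and were tested on simulated data. Alternatives were DESeq2 1.42.0, upper-quartile scaling, other filters (at least 1 read, a mean of 50 reads), a replicate block, a joint fit per line, leaving out each library, and the study's Fisher rule mirrored for rises (odds ratio over 2 and adjusted p below 0.001 in all 4 pairs). No label says that replicates came from separate cultures, so p-values measure only the spread between libraries, with 2 in a group. An exact permutation test with 2 against 2 cannot pass a threshold and was not used. The members and lists were chosen with earlier results of these data known. Named genes were the members, fixed pathway and neighbour genes, the 3 antiviral genes with the largest line difference in either direction in each assay, and 5 nearest profiles per member among genes with at least 10 reads in 2 libraries. The SE is the estimate divided by the square root of edgeR's F. Some genes under that rule are not reported here.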

Additional observations from a re-analysis of the deposited data

Results flagged for a closer look

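Genes of the antiviral list whose response to miR-137 differed between the lines by edgeR's line-by-transfection test are listed with the log2 change in U343 minus that in U251. In RNASeq these were IFITM3 (-3.03) and BST2 (-2.57). In RIPSeq they were IFIT1 (-2.26), OAS1 (-2.10) and IFIT3 (-1.71), with the larger change in U251, and OASL (1.30), USP18 (1.85) and IFI27 (2.29), with the larger change in U343. The IFI27 and OAS1 differences rest on few control reads, at 0.127 CPM in the U343 and 0.382 in the U251 RIPSeq controls. DESeq2 gave all 8 an adjusted p below the threshold, from 2.4e-08 (IFIT1) to 0.0161 (IFITM3). With the replicate number as a block, IFIT3, OASL and USP18 missed it (adjusted p = 0.0604, 0.0828 and 0.0576).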

How the results depend on the processing

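With 2 libraries a group, depth and single libraries limit these results. Control counts of MX2 and XAF1 were as low as 12 and 2 reads. Calls over all genes moved when any U343 RNASeq library or either U251 RIPSeq control was left out. In the RIPSeq comparison of responses between the lines they moved when any library of either line was left out. The count of antiviral genes called higher in U343 RNASeq was 17 by DESeq2, beside 1963 of 14210 over all genes. It was 15 in a joint fit of the line, beside 2265 of 15413, and 1 by the Fisher rule, beside 311 of 20626. This count moved when single libraries were left out, as did the calls over all genes. In U251 RIPSeq the count moved as well when a library was left out, and in U251 RNASeq and U343 RIPSeq it did not. For the difference between lines, each fit without a library was set against the full fit. Calls over all genes then rose or fell together with those of the antiviral list, in both assays. The range that follows is therefore not particular to the antiviral genes. The count that differed between lines was 0 to 35 in RNASeq and 0 to 29 in RIPSeq without a library, and in RIPSeq 16 by DESeq2 and 3 with the replicate number as a block.

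For PABP-bound against total RNA in U251, the log2 value of XAF1 turned to -0.055 with upper-quartile scaling, to -0.042 with the filter at a mean of 50 reads, and to -0.0135 without RNASeq replicate 2 and -0.0144 without RIPSeq replicate 1, all without a call. Leaving out each library gave -0.58 to -0.54 for MX1, 0.34 to 0.36 for MX2 and -0.0144 to 0.0356 for XAF1. In U343 with miR-137 it gave -0.0819 to 1.05 for MX1, 0.69 to 8.30 for MX2 and 0.90 to 4.74 for XAF1, and in the U343 controls -0.34 to -0.17 for MX1, -1.27 to -0.86 for MX2 and 0.14 to 0.47 for XAF1. For the difference between lines it gave 0.52 to 1.63, 0.38 to 7.96 and 0.93 to 4.74. DESeq2 gave 0.93 (adjusted p = 0.0361) for MX1 in that difference and -1.06 (adjusted p = 0.176) for MX2 in the U343 controls. The cause was not tested.

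The log2 ratio of miR-137 to control moved to 6.81 for MX1 in U251 RNASeq with plain totals, to 9.68 for XAF1 in U251 RNASeq with 5 reads added, and for MX2 in U251 RIPSeq to 8.81 with DESeq2 size factors and 8.83 with 5 reads added. Without a library, the U343 RNASeq ratios ran from -1.01 to 0.07 for MX1, 1.51 to 9.07 for MX2 and -0.11 to 3.68 for XAF1, and the U251 RIPSeq ratios from 6.56 to 7.01, 8.86 to 8.98 and 8.85 to 9.94.

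Replicate numbers pair no samples by the labels, and same-numbered libraries had correlations of their deviations from -0.18 to 0.25. With the replicate block no call of the 3 genes changed, and the MX1 difference between PABP-bound and total RNA in U251 was -0.56. In the U343 controls the crossed pairing, chosen after seeing the data, called 4018 genes higher and 4051 lower (3625 and 3606 without a block), and XAF1 was at 0.30 (adjusted p = 0.0441 by edgeR).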
